A study of Mus musculus with 3 samples.

Results

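The insulin like growth factor (IGF) system of mouse skin was described here through 9 of the 33696 genes in the count matrices, taken by symbol: the ligands Igf1 and Igf2, the receptor Igf1r, and the binding proteins Igfbp2, Igfbp3, Igfbp4, Igfbp5, Igfbp6 and Igfbp7. IGF1 and IGF2 are small secreted growth factors that signal through the receptor tyrosine kinase IGF1R to the PI3K, AKT and mTOR pathway. The IGFBP proteins hold the ligands outside the cell, lengthen their lives, and block or deliver them to the receptor, while IGFBP7 binds the ligands weakly and is also known as a vascular matrix protein. In hair follicles, IGF1 made in the dermal papilla is known to sustain growth of the hair matrix.

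The skin came from the backs of female C57BL/6 mice, 9 weeks old and depilated with wax, and its cells were sequenced in droplets, each under its own barcode. The groups were the chemotherapy-induced alopecia model given venlafaxine (CIA+VFX), the model alone (CIA) and vehicle controls (Cont). Each group had 1 library made from pooled mice of unstated number, so there was no replicate check. The labels give neither the chemotherapy agent nor a dose or a day, and the pooled mice cannot be told apart. Intervals below are 95% and cover counting error only, and no p-value was computed.

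After filtering, 15372 cells of CIA+VFX, 15401 of CIA and 11904 of Cont remained, with median depths over all barcodes of 4923, 4977 and 5950 UMIs. The median mitochondrial share was 2.40% in CIA+VFX, 1.42% in CIA and 2.31% in Cont. Libraries shared 75 to 110 barcode sequences pairwise and 2 across all 3. Cells were assigned to 23 cell types by their own markers. Each type name below stands for such marker-gated, type-like cells, since no deposited annotation was used. For all 23 types, own markers stood among the 10 leading genes. The 20 types with at least 50 cells in every library were compared. Schwann, muscle satellite, and mast and basophil cells were too few. Levels are UMIs summed over the cells of a type in a library, as CPM, the counts scaled to one common total of UMIs. Being counted from 3′ ends, they were compared for 1 gene across cells and never between genes.

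Free RNA in the suspension puts UMIs of every abundant gene into cells that do not make it. A member was therefore said to have a level of its own in a type where its CPM, in the higher library of a comparison, was at least 0.5 times that over all kept cells of that library. This rule was set after values were seen, and a pair could pass it through its higher library alone. Of 107 pairs of member and type with at least 50 UMIs in CIA and Cont together, 44 were at least 1.5-fold higher in CIA and 12 lower, against 12.0% higher and 9.07% lower among all genes. Only 52 of these pairs had a level of their own, of which 14 were higher in CIA and 9 lower. Under the same rule, 11.2% of all pairs of gene and type were higher in CIA and 8.82% lower. Between CIA+VFX and CIA, 108 pairs were measured, with 9 higher and 17 lower, against backgrounds of 5.13% and 4.28%. Of the 55 with a level of their own, 6 were higher and 6 lower, against 4.37% and 3.84%. Between CIA+VFX and Cont, 38 of 107 pairs were higher and 5 lower, against 10.3% and 6.91%, and of 55 with a level of their own, 11 were higher and 5 lower, against 9.22% and 6.69%. The 3 comparisons share libraries pairwise and are not independent.

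**Figure D1:**
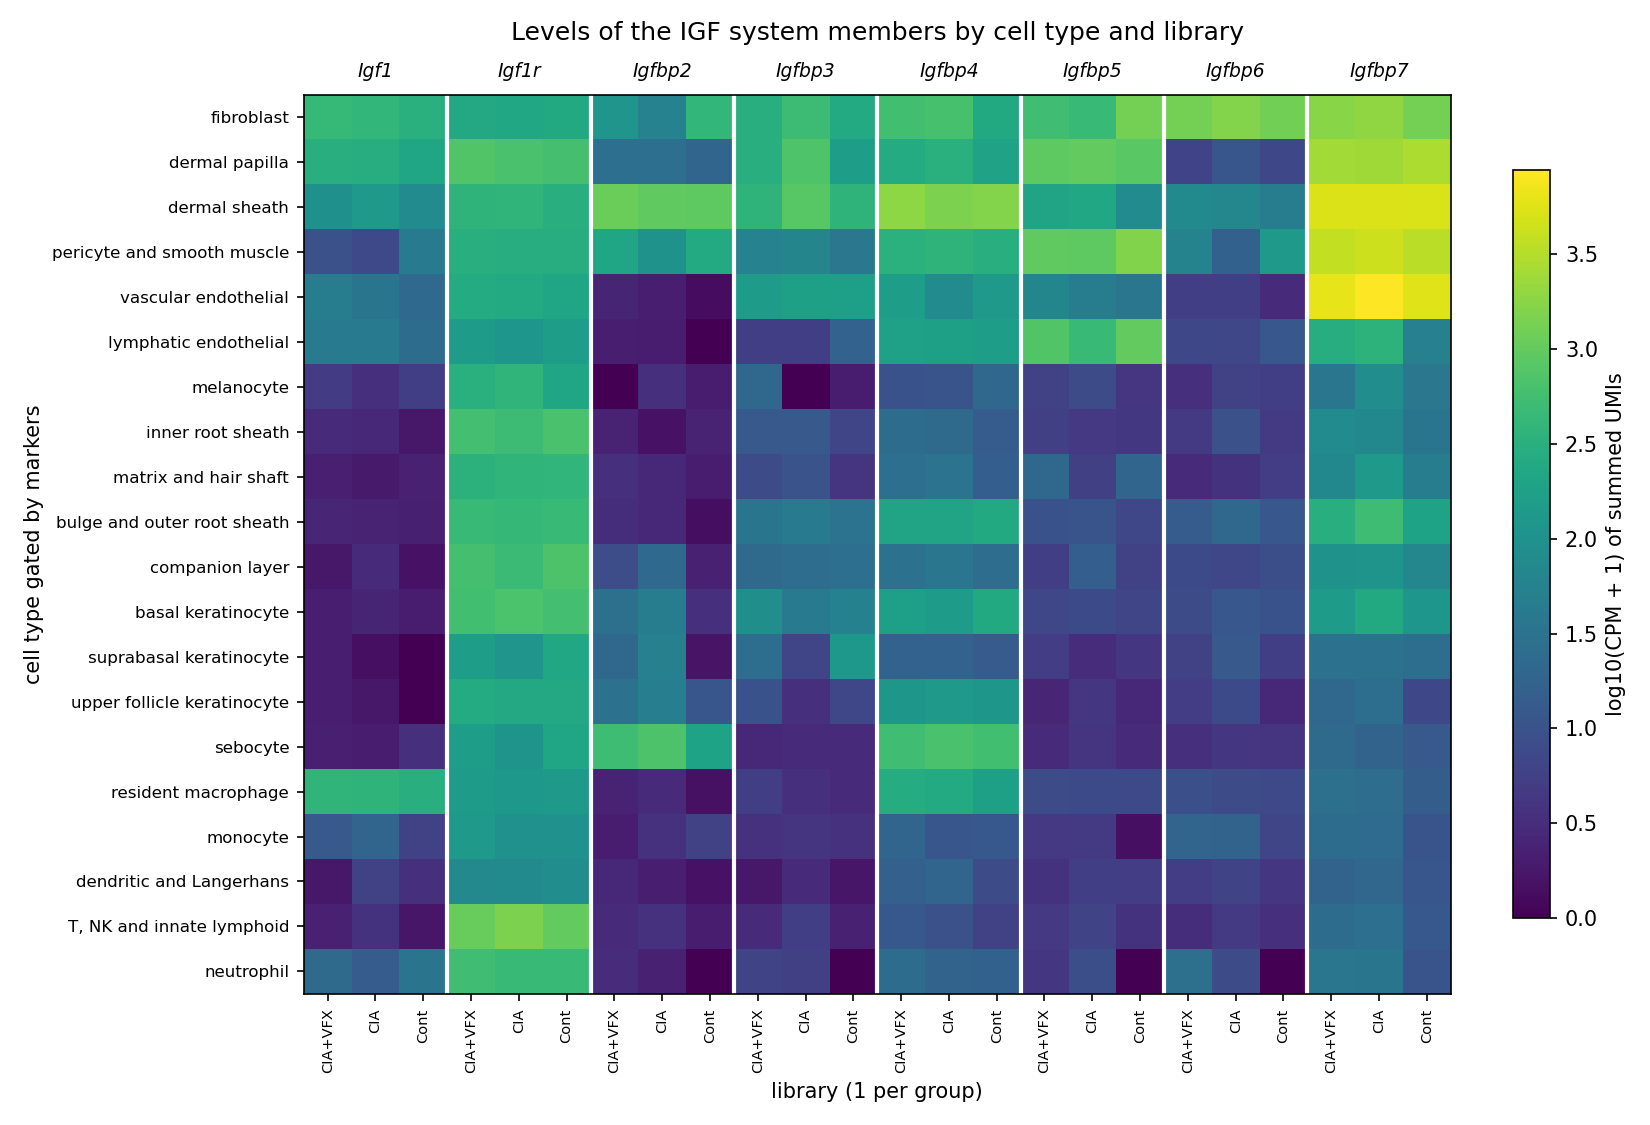
Levels of 8 members (columns, grouped by gene, each with its CIA+VFX, CIA and Cont libraries from left to right) in 20 marker-gated cell types (rows), coloured by log10(CPM + 1). Igf2 is left out, with 41 UMIs in all kept cells. Igf1 is bright in fibroblasts, dermal papilla, dermal sheath and resident macrophages, Igf1r is spread over nearly all types, and the binding proteins mostly mark mesenchymal and vascular rows.

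Igf1, the main ligand in adult tissue, was highest among compared types in fibroblasts, resident macrophages, dermal papilla and dermal sheath. Schwann cells, too few to compare, had 228.6 CPM in CIA+VFX (31 UMIs), 183.3 in CIA (55 UMIs) and 538.3 in Cont (71 UMIs). Fibroblasts had 434.5 CPM in CIA+VFX, 409.5 in CIA and 319.6 in Cont. Resident macrophages had 384.1 CPM in CIA+VFX, 366.3 in CIA and 296.2 in Cont. Dermal papilla cells had 298.6 CPM in CIA+VFX, 279.7 in CIA and 210.6 in Cont. Among compared types the order by mean level was fibroblasts, macrophages, papilla and then dermal sheath. The ranges of neighbours overlapped among the first 3, and that of the sheath lay below them. That first place also turned with the processing: with clusters in place of gates, macrophages stood above fibroblasts (log2 difference -0.17). A UMI of Igf1 was found in 53.8% of fibroblasts in CIA+VFX, 54.8% in CIA and 54.3% in Cont. Thinned to 2000 UMIs a cell, the shares were 36.7% in CIA+VFX, 35.9% in CIA and 30.5% in Cont. T, NK and innate lymphoid cells, which should lack it, had one in 0.604%, 1.12% and 0.398% of cells in CIA+VFX, CIA and Cont. Median depths were 6635, 6154 and 8483 UMIs in fibroblasts and 4009, 4028 and 4777 in lymphoid cells, in the same order of libraries.

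Igf1 was somewhat higher in CIA than in Cont in all 4 of these types, and the gap passed 1.5-fold only in the dermal sheath. Gated cells are meant here, and clusters within the gates did not all share it. The log2 ratio of CIA to Cont was 0.36 (0.30 to 0.42) in fibroblasts, 0.31 (0.22 to 0.39) in resident macrophages and 0.41 (0.33 to 0.49) in dermal papilla. In dermal sheath, Igf1 had 93.7 CPM in CIA+VFX, 127.6 in CIA and 79.9 in Cont, a CIA to Cont ratio of 0.67 (0.44 to 0.92). That ratio was -0.25 with clusters in place of gates. In the main macrophage cluster 1, Igf1 had 487.5 CPM in CIA+VFX, 445.8 in CIA and 438.3 in Cont, and in cluster 0 it had 256.9 CPM in CIA+VFX, 243.4 in CIA and 346.9 in Cont. The Igf1-poor macrophage cluster 14, at 34.1 CPM in CIA+VFX, 50.2 in CIA and 62.1 in Cont, was 4.57% of the gate in CIA+VFX, 4.65% in CIA and 22.7% in Cont. CIA+VFX lay within 0.09 of CIA on the log2 scale in fibroblasts and papilla, and was lower by -0.45 (-0.65 to -0.25) in the sheath. Vascular endothelial cells held lower levels, with 45.3 CPM in CIA+VFX, 33.3 in CIA and 21.4 in Cont, and 2.12-fold more in CIA+VFX than in Cont. Lymphatic endothelial cells held 40.7 CPM in CIA+VFX and 24.1 in Cont, 1.68-fold apart. Keratinocyte-gated cells as a whole had 1.34 CPM in CIA+VFX, 1.36 in CIA and 0.809 in Cont.

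Among fibroblasts, Igf1 was highest in the Myoc subset (markers Myoc, Thbs4, Cilp and others), with 642.5 CPM in CIA+VFX, 706.7 in CIA and 559.9 in Cont. The Ccl19 subset followed with 511.2 CPM in CIA+VFX, 474.3 in CIA and 418.5 in Cont. The Pi16 subset, adventitial fibroblasts by its markers, had only 210.9 CPM in CIA+VFX, 158.5 in CIA and 127.2 in Cont. The subset gated by papillary markers had 246.8 CPM in CIA+VFX, 286.5 in CIA and 197.9 in Cont. In all 4 subsets Cont was the lowest library. Shares of the subsets in the fibroblast gate differed: the Myoc subset made up 25.0% of fibroblasts in CIA+VFX, 22.1% in CIA and 14.4% in Cont. Fibroblast clusters, built without the members, did not all have Cont lowest. Cluster 34, led by Postn, Lpl and Cdkn1c and with no cell of the Myoc subset, had the highest Igf1 of them, with 738.2 CPM in CIA+VFX, 701.1 in CIA and 812.3 in Cont. Cluster 3, led by Gpx3 and Myoc, had 580.2 CPM in CIA+VFX, 566.8 in CIA and 516.6 in Cont. Cluster 11, led by Col1a1, Col1a2 and Lum, had 221.5 CPM in CIA+VFX, 265.4 in CIA and 248.4 in Cont.

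Igf2, the fetal ligand, was all but undetected. All kept cells held 11 UMIs in CIA+VFX, 17 in CIA and 13 in Cont, or 0.0829 CPM (0.0414 to 0.148), 0.148 CPM (0.0865 to 0.238) and 0.102 CPM (0.0544 to 0.175). No type could be compared at this depth. H19, the noncoding RNA neighbour of Igf2, had 1.5 CPM in CIA+VFX (5 UMIs), 0.619 in CIA (3 UMIs) and 38.7 in Cont (92 UMIs) in dermal sheath. Cluster 51, led by the muscle genes Acta1, Tnnt3 and Mylpf, was 0% of sheath-gated cells in CIA+VFX, 1.21% in CIA and 8.03% in Cont. Its part in the H19 values was not tested.

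Igf1r was measured in nearly every type, and among whole gates lymphoid cells had the most. T, NK and innate lymphoid cells had 1040 CPM in CIA+VFX, 1434 in CIA and 972.2 in Cont, and their range did not overlap that of dermal papilla, next in order. Dermal papilla had 732.7 CPM in CIA+VFX, 635.5 in CIA and 595.4 in Cont. Basal keratinocytes, companion layer and inner root sheath followed with overlapping ranges. Basal keratinocytes had 568.5 CPM in CIA+VFX, 670.7 in CIA and 578.7 in Cont. That gate was uneven. Basal cells of cluster 5, led by Itga2, Maml3 and Sox5, had 2292 CPM in CIA+VFX, 2378 in CIA and 2391 in Cont. This was above the whole lymphoid gate in every library. Basal cluster 2 had 348.4 CPM in CIA+VFX, 376.5 in CIA and 398.5 in Cont. Cluster 5 was shallow, with a median of 2514 UMIs over all its cells, against 9234 in cluster 2. Its sebocyte-gated cells in CIA+VFX had 1942 CPM, so a high level was not confined to its basal-gated cells. Shallow clusters of dermal papilla went both ways: in CIA, cluster 43 had 1353 CPM and cluster 48 397.5, against 663.2 in the deeper cluster 6. The part of depth in these levels was not tested. At the low end, dendritic and Langerhans cells had 70.4 CPM in CIA+VFX, 76.5 in CIA and 85.9 in Cont.

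Among the lymphoid parts given below in CPM, Igf1r was highest in γδ T cells of the interleukin-17 type. For this, lymphoid cells were split, after the levels were seen, by UMIs of Trdc (the δ chain constant gene), Trac (the α chain) and 4 interleukin-17 program genes, Il17a, Il23r, Blk and Scart1. Trdc cells with at least 2 of these had 2951 CPM of Igf1r in CIA+VFX, 2731 in CIA and 3569 in Cont. Trdc cells with none had 121.9 CPM in CIA+VFX, 196.1 in CIA and 88.7 in Cont. Trac cells, here αβ T cells with no Trdc UMI and fewer than 2 of these genes, had 186.3 CPM in CIA+VFX, 263.8 in CIA and 61.9 in Cont. The interleukin-17 type cells thus exceeded both other kinds in every library. Trac cells with at least 2 of these genes were in no part. Chain and interleukin-17 program therefore cannot be told apart in the contrast with Trac cells. Clusters 8 and 37, built without Igf1r, gave like values: cluster 8 had 2920 CPM in CIA+VFX, 2739 in CIA and 3542 in Cont. Trdc and the 4 interleukin-17 program genes are themselves leading genes of cluster 8, so that cluster is no independent check of the split. Cluster 16, of nearly the same median depth (4041 against 3896 UMIs for cluster 8), had 55.7 CPM in CIA+VFX, 61.5 in CIA and 35.9 in Cont.

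The gate and the part of it with the highest Igf1r above lay on opposite sides. Over all lymphoid cells, Igf1r was higher in CIA than in Cont by 0.56 (0.52 to 0.61) on the log2 scale. In the interleukin-17 type Trdc cells it was lower, by -0.39 (-0.45 to -0.33). These cells were 22.1% of lymphoid cells in CIA+VFX, 27.6% in CIA and 18.7% in Cont. Trac cells were on the side of the gate, with a CIA to Cont ratio of 2.09 (1.85 to 2.34), as did cells with neither chain, at 2.14 (1.98 to 2.30). The share of interleukin-17 type cells has the same order of libraries as these low levels, and its part in them was not tested. Against CIA, the whole gate in CIA+VFX was lower by -0.46 (-0.51 to -0.42), while the interleukin-17 type cells stood at 0.11 (0.04 to 0.18) in that comparison. Among types with a level of their own, Igf1r passed 1.5-fold between CIA and Cont in melanocytes alone: 318.3 CPM in CIA+VFX, 376.2 in CIA and 205.7 in Cont, a CIA to Cont ratio of 0.87 (0.56 to 1.18). In the follicle, inner root sheath (-0.37) and companion layer (-0.51) were lower in CIA than in Cont without reaching that size. Below the level required of its own, suprabasal keratinocytes had 162.3 CPM in CIA+VFX, 114.4 in CIA and 230.5 in Cont, and sebocytes had 156.7 CPM in CIA+VFX, 108.5 in CIA and 217.7 in Cont, each about 2-fold lower in CIA than in Cont.

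**Figure D2:**
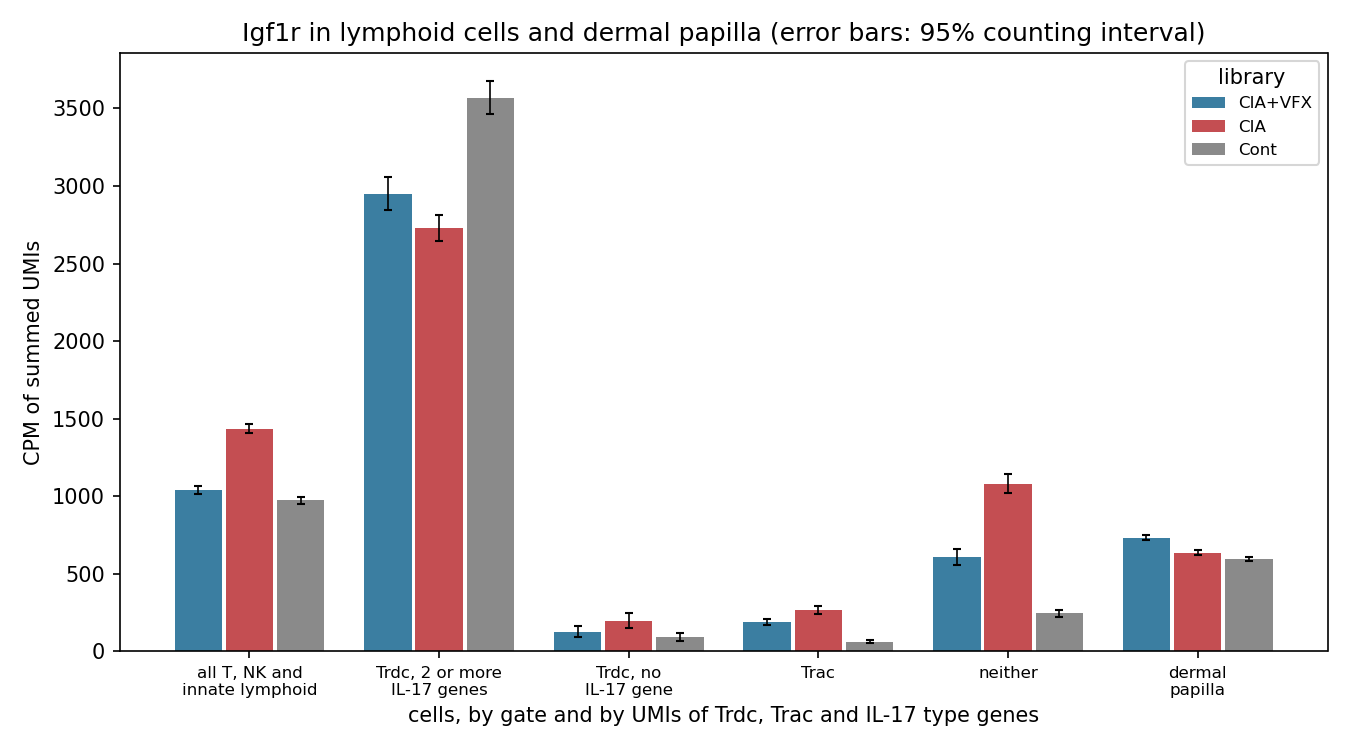
Igf1r in CPM (vertical axis, from 0) in lymphoid cells as a whole, in their parts by UMIs of Trdc, Trac and interleukin-17 type genes, and in dermal papilla; bars are the CIA+VFX, CIA and Cont libraries and error bars the 95% counting interval. The Trdc cells with at least 2 interleukin-17 genes reach 2731 to 3569 CPM, and their Cont bar is the tallest, whereas over all lymphoid cells the CIA bar is.

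Fibroblasts had several binding proteins past 1.5-fold at once. Of 8 members measured there, 3 were at least 1.5-fold higher in CIA than in Cont (Igfbp3, Igfbp4 and Igfbp7) and 2 lower (Igfbp2 and Igfbp5), against 7.52% of all fibroblast genes higher and 8.56% lower. Between CIA+VFX and CIA, 1 of 8 was higher (Igfbp2) and 1 lower (Igfbp3) in CIA+VFX, against 5.16% and 2.40%. Between CIA+VFX and Cont, 1 was higher (Igfbp4) and 2 lower (Igfbp2 and Igfbp5), against 8.64% and 6.28%. The median log2 ratio of all measured fibroblast genes in CIA against Cont was 0.01.

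Igfbp2, Igfbp4 and Igfbp5 stood furthest apart in fibroblasts, and their upstream sequences are shown because Igfbp2 and Igfbp5 are neighbours that were both lower in CIA while Igfbp4 was higher. Igfbp2 and Igfbp5 lie tail to tail on chromosome 1 with 5590 bases and no listed gene between them (RefSeq, GRCm38.p6). The 250 bases before the first listed start are chr1:72824230-72824479 on the plus strand, chr11:99040994-99041243 on the plus strand and chr1:72874866-72875115 on the minus strand, all GRCm38.p6 and read 5′ to 3′. The counts were made on GRCm39, and genes were matched by symbol, with all 9 members found. Capitals mark matches on either strand to the TATA box (TATAAA), the GC box (GGGCGG), a forkhead core motif (GTAAACA) or an AP-1 element (TGACTCA).
Igfbp2: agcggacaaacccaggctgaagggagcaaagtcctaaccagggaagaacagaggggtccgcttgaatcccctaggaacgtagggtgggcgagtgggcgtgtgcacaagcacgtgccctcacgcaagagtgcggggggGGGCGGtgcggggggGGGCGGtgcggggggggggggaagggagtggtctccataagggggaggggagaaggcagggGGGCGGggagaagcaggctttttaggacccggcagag
Igfbp4: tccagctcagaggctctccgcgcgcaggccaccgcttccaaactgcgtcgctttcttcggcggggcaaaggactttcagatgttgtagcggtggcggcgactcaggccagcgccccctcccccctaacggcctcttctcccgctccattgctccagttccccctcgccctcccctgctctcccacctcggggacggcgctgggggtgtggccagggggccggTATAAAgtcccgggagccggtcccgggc
Igfbp5: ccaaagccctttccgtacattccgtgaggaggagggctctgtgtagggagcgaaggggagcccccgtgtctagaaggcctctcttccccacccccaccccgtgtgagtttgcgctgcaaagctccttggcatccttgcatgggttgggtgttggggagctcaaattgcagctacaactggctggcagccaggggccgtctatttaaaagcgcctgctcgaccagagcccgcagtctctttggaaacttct
The Igfbp2 stretch held 3 copies of the GC box, which was present in 32.7% of 32851 such stretches. The Igfbp4 stretch held 1 TATA box, which was present in 12.4%. The Igfbp5 stretch held none of the 4 motifs. The forkhead core motif, present in 3.17% of stretches, and the AP-1 element, in 4.46%, were in none of the 3. Before the other listed start of Igfbp2, not shown, stood 1 AP-1 element and no GC box. No matches overlapped.

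Igfbp2 had 112.3 CPM in fibroblasts of CIA+VFX, 54.1 in CIA and 406.1 in Cont. It was 7.51-fold lower in CIA than in Cont (log2 ratio -2.91, -3.02 to -2.80) and 2.08-fold higher in CIA+VFX than in CIA (1.05, 0.92 to 1.19). Cont was thus far above both model libraries, and CIA+VFX lay between. The gene was carried by few cells: a UMI was found in 6.09% of fibroblasts in CIA+VFX, 3.24% in CIA and 13.0% in Cont, against 0.949%, 1.19% and 0.530% of lymphoid cells. With every cell thinned to 2000 UMIs, the fibroblast shares were 4.32% in CIA+VFX, 2.40% in CIA and 9.62% in Cont, leaving out 166, 200 and 113 shallower cells. By subset, the papillary-marker cells had 504.0 CPM in CIA+VFX, 293.7 in CIA and 1591 in Cont. The Ccl19 subset had 83.7 CPM in CIA+VFX, 26.4 in CIA and 304.7 in Cont. The Pi16 subset had 22.2, 7.78 and 5.16 CPM in CIA+VFX, CIA and Cont. None of the 5 papillary markers was among the 10 leading genes of that subset, which included 5 general fibroblast markers and Igfbp2 itself.

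Most of this Igfbp2 lay in 1 fibroblast cluster, which held 936 of 1068 fibroblast UMIs in CIA+VFX, 640 of 797 in CIA and 4365 of 4387 in Cont. Cluster 11, led by Col1a1, Col1a2, Lum, Serpina3n and Ccl19, had 424.9 CPM in CIA+VFX, 226.4 in CIA and 950.2 in Cont. Cluster 3 had 1.53 CPM in CIA+VFX, 1.31 in CIA and 0.455 in Cont. Cluster 11 was 18.8% of fibroblasts in CIA+VFX, 15.1% in CIA and 41.6% in Cont, so both the level within it and its share were lowest in CIA. With the 4 subsets weighted equally, an alternative chosen after the data were seen, the CIA to Cont ratio was -2.50.

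Igfbp5, known in skin as a binding protein of mesenchymal and vascular wall cells, had 536.2 CPM in fibroblasts of CIA+VFX, 445.8 in CIA and 1305 in Cont. It was 2.93-fold lower in CIA than in Cont (-1.55, -1.59 to -1.51) and close to CIA in CIA+VFX (0.27, 0.21 to 0.32). The gap was not shared evenly by the subsets. Ccl19 fibroblasts had 601.3 CPM in CIA+VFX, 281.3 in CIA and 1530 in Cont, 5.44-fold lower in CIA than in Cont and 2.14-fold higher in CIA+VFX than in CIA. Papillary-marker fibroblasts had 723.1 CPM in CIA+VFX, 490.6 in CIA and 1659 in Cont. Pi16 fibroblasts had 811.6 CPM in CIA+VFX, 943.8 in CIA and 1406 in Cont. Myoc fibroblasts were level, with 136.2 CPM in CIA+VFX, 146.5 in CIA and 144.9 in Cont (CIA to Cont 0.02, -0.23 to 0.27). Cluster 11 again held the gap, with 1277 CPM in CIA+VFX, 604.3 in CIA and 2128 in Cont. In cluster 18, led by Opcml, Smpd3 and C3, Igfbp5 had 1364 CPM in CIA+VFX, 1327 in CIA and 1547 in Cont.

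Outside fibroblasts, Igfbp5 was highest by mean in pericytes and smooth muscle cells, with 966.2 CPM in CIA+VFX, 913.0 in CIA and 1586 in Cont. Their range overlapped that of dermal papilla, which stood above them in CIA. In pericytes and smooth muscle cells too, Cont, with only 70 gated cells, was above both model libraries, 1.74-fold over CIA. In their main cluster 36 the gap was smaller, with 941.8 CPM in CIA+VFX, 949.2 in CIA and 1363 in Cont. Lymphatic endothelial cells had 747.8 CPM in CIA+VFX, 448.6 in CIA and 972.8 in Cont, 2.17-fold lower in CIA than in Cont and 1.67-fold higher in CIA+VFX than in CIA. Dermal papilla differed little, with 929.7 CPM in CIA+VFX, 977.8 in CIA and 845.7 in Cont. The dermal sheath went the other way, with 200.3 CPM in CIA+VFX, 231.6 in CIA and 77.8 in Cont, 2.98-fold higher in CIA than in Cont. In its cluster 39 Igfbp5 had 101.7 CPM in CIA+VFX, 120.5 in CIA and 35.9 in Cont, and in its cluster 26 287.4 CPM in CIA+VFX, 207.6 in CIA and 141.1 in Cont.

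Igfbp4, a mostly inhibitory binding protein that the protease PAPP-A cleaves, had 555.9 CPM in fibroblasts of CIA+VFX, 626.6 in CIA and 246.3 in Cont. It was 2.54-fold higher in CIA than in Cont (1.35, 1.28 to 1.41), and CIA+VFX stayed near CIA (-0.17, -0.22 to -0.12). The widest gap was in papillary-marker fibroblasts, with 1405 CPM in CIA+VFX, 1481 in CIA and 190.7 in Cont, 7.76-fold higher in CIA than in Cont. Ccl19 fibroblasts had 492.1 CPM in CIA+VFX, 625.5 in CIA and 225.2 in Cont. Pi16 fibroblasts had 517.0 CPM in CIA+VFX, 698.7 in CIA and 437.1 in Cont. Cluster 34 held the highest level of the fibroblast clusters, with 1168 CPM in CIA+VFX, 1585 in CIA and 929.0 in Cont. That cluster was 12.6% of fibroblasts in CIA+VFX, 9.92% in CIA and 6.90% in Cont. Cluster 11, where Igfbp2 and Igfbp5 lay, had only 20.4 CPM of Igfbp4 in CIA+VFX, 22.6 in CIA and 5.44 in Cont.

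**Figure D3:**
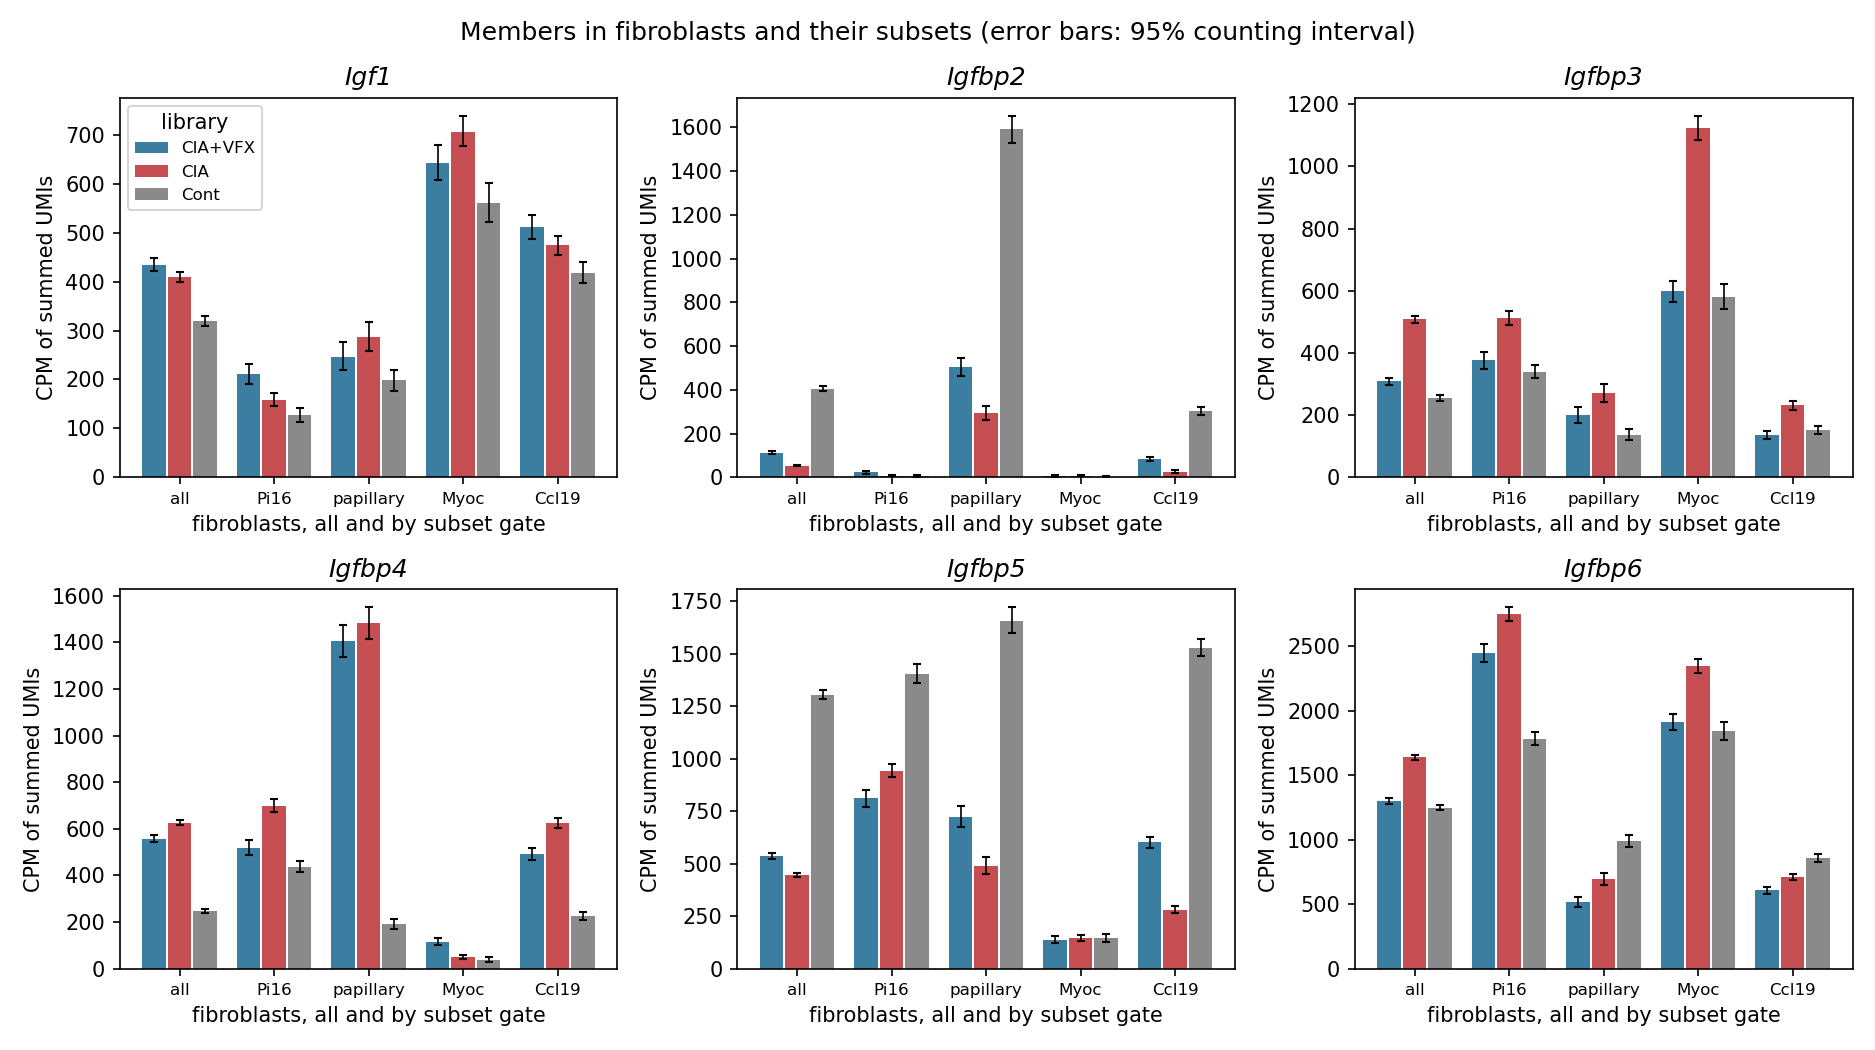
Levels of 6 members in CPM (vertical axes, from 0, scaled per gene) in all fibroblasts and in the Pi16, papillary-marker, Myoc and Ccl19 subsets; bars are the CIA+VFX, CIA and Cont libraries and error bars the 95% counting interval. The Cont bar is the tallest for Igfbp2 and Igfbp5 in papillary-marker and Ccl19 fibroblasts and the shortest for Igfbp4 there, and the Myoc bars of Igfbp5 are level at 136.2 to 146.5 CPM.

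Across types, Igfbp4 was highest in the dermal sheath, with 1866 CPM in CIA+VFX, 1482 in CIA and 1592 in Cont, followed by sebocytes with 530.8 CPM in CIA+VFX, 643.3 in CIA and 558.6 in Cont. Neither differed by 1.5-fold between libraries. Dermal papilla had 262.5 CPM in CIA+VFX, 320.5 in CIA and 183.1 in Cont, 1.75-fold higher in CIA than in Cont. In vascular endothelial cells CIA was the low library: 163.3 CPM in CIA+VFX, 77.6 in CIA and 136.8 in Cont, 1.76-fold lower in CIA than in Cont and 2.11-fold higher in CIA+VFX than in CIA. The clusters differed: cluster 17 had 73.6 CPM in CIA+VFX, 48.2 in CIA and 144.5 in Cont, whereas cluster 30 had 227.7 CPM in CIA+VFX, 95.3 in CIA and 98.1 in Cont. Basal keratinocytes had 168.8 CPM in CIA+VFX, 142.1 in CIA and 246.8 in Cont, 1.74-fold lower in CIA than in Cont. Within basal clusters the gap was small: cluster 2 had 374.0 CPM in CIA+VFX, 359.0 in CIA and 408.2 in Cont, and cluster 20 had 149.7 CPM in CIA+VFX, 107.8 in CIA and 111.1 in Cont. The Igfbp4-rich cluster 2 was 19.4% of basal cells in CIA+VFX, 15.1% in CIA and 35.1% in Cont. Resident macrophages had 273.8 CPM in CIA+VFX, 253.7 in CIA and 173.7 in Cont. Their main cluster 1 had 385 CPM in CIA+VFX, 341.6 in CIA and 284.2 in Cont. Their cluster 14 had only 11.4 CPM in CIA+VFX, 25.1 in CIA and 7.91 in Cont. It was 4.57% of the gate in CIA+VFX, 4.65% in CIA and 22.7% in Cont, and its part in the gap was not tested.

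Igfbp3, the main carrier of IGFs in blood, was highest in CIA in gated fibroblasts, dermal sheath and dermal papilla. Fibroblasts had 308.8 CPM in CIA+VFX, 508.6 in CIA and 253.7 in Cont. Dermal sheath had 369.0 CPM in CIA+VFX, 813.0 in CIA and 359.7 in Cont. Dermal papilla had 307.4 CPM in CIA+VFX, 705.0 in CIA and 153.2 in Cont. In fibroblasts and sheath the CIA+VFX library lay near Cont, and in papilla between the others. The ratio of CIA to Cont was 2.01-fold in fibroblasts, 2.26-fold in sheath and 4.60-fold in papilla, and that of CIA+VFX to CIA was -0.72 (-0.78 to -0.66), -1.14 (-1.23 to -1.05) and -1.20 (-1.26 to -1.14) in these types. All 4 fibroblast subsets had their highest Igfbp3 in CIA, the Myoc subset with 597.8 CPM in CIA+VFX, 1123 in CIA and 581.0 in Cont. By cluster, CIA was highest in fibroblast clusters 3, 11 and 18, and Cont in clusters 34 and 45. Cluster 3 had 632.5 CPM in CIA+VFX, 1011 in CIA and 619.4 in Cont, whereas cluster 34 had 42.0 CPM in CIA+VFX, 35.7 in CIA and 107.3 in Cont. In vascular endothelial cells Igfbp3 was level, with 148.0 CPM in CIA+VFX, 169.8 in CIA and 165.5 in Cont.

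In CIA, most Igfbp3 UMIs of the papilla and sheath gates lay in cluster 22, led by Rasd1, Gpc5, Coch, Fmod and Tnn. Its papilla-gated cells held 5498 UMIs in CIA, beside 1348 in the main papilla cluster 6. In CIA+VFX these were 1392 and 1503. Its sheath-gated cells held 2996 UMIs in CIA, beside 843 in cluster 39. Papilla-gated cells of cluster 22 had 3363 CPM in CIA+VFX and 3364 in CIA. That cluster gave 5.45% of papilla cells in CIA+VFX, 12.4% in CIA and 3.39% in Cont, where 19 cells were too few to print. In the main papilla cluster 6, Igfbp3 had 167.1 CPM in CIA+VFX, 176.8 in CIA and 72.7 in Cont. With clusters in place of gates, the papilla ratio of CIA+VFX to CIA was 0.03, and the sheath ratio of CIA to Cont was -0.42. In the sheath, cluster 39 had 258.0 CPM in CIA+VFX, 381.9 in CIA and 465.1 in Cont. Cluster 22 was 17.5% of sheath cells in CIA+VFX, 27.9% in CIA and 13.9% in Cont, and its part in the gaps between libraries was not tested.

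In the suprabasal epidermis, Igfbp2 and Igfbp3 lay on opposite sides. Suprabasal keratinocytes had 20.5 CPM of Igfbp2 in CIA+VFX (74 UMIs), 51.7 in CIA (121 UMIs) and 0.630 in Cont (1 UMI), a CIA to Cont log2 ratio of 6.36 with an interval of 3.85 to 11.67. The same cells had 25.2 CPM of Igfbp3 in CIA+VFX (91 UMIs), 5.55 in CIA (13 UMIs) and 126.6 in Cont (201 UMIs), a ratio of -4.51 (-5.45 to -3.71). The order of libraries for Igfbp3 was the reverse of that for Igfbp2, with CIA+VFX between the others for both. With cells thinned to 2000 UMIs, the Igfbp2 ratio of CIA+VFX to CIA was 0.01, so its place between the others was not kept. Gated cells numbered 296 in CIA+VFX, 170 in CIA and 102 in Cont. Their main cluster 35, led by the keratins Krt10 and Krt1, had 21.3 CPM of Igfbp2 in CIA+VFX, 51.4 in CIA and 0.840 in Cont, and 13.4 CPM of Igfbp3 in CIA+VFX, 4.39 in CIA and 139.4 in Cont. It was 51.4% of suprabasal cells in CIA+VFX, 54.7% in CIA and 54.9% in Cont. Resident macrophages, which should lack both, had 1.42, 2.08 and 0.496 CPM of Igfbp2 and 4.48, 2.43 and 1.98 CPM of Igfbp3 in CIA+VFX, CIA and Cont.

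Igfbp2 was also high in CIA in other epithelial cells. Basal keratinocytes had 27.1 CPM in CIA+VFX, 45.2 in CIA and 2.49 in Cont, 18.2-fold higher in CIA than in Cont, a level just over that required of its own. Basal cells of cluster 10, led by Ifi202b, Defb6 and Ccl27a, had 28.5 CPM in CIA+VFX, 108.2 in CIA and 5.11 in Cont. They held 49 of 235 basal UMIs in CIA+VFX, 104 of 259 in CIA and 3 of 26 in Cont, so most of the gate's Igfbp2 lay in other cells. In basal cluster 2 it was low, at 0.883 CPM in CIA+VFX, 0.833 in CIA and 1.24 in Cont. Upper follicle keratinocytes had 29.7 CPM in CIA+VFX, 46.9 in CIA and 10.2 in Cont. Sebocytes, the lipid-making gland cells, had 514.8 CPM in CIA+VFX, 682.2 in CIA and 190.5 in Cont, 3.58-fold higher in CIA than in Cont. A UMI was found in 56.0% of sebocytes in CIA+VFX, 72.4% in CIA and 46.6% in Cont, with median depths of 11535.5, 19666.5 and 12020 UMIs. Thinned to 2000 UMIs, the shares were 43.9% in CIA+VFX, 53.3% in CIA and 22.0% in Cont. In sebocytes, TMM scaling moved every ratio of CIA to Cont by 0.26, and that of Igfbp2 stood at 2.10.

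Dermal sheath was the highest site of Igfbp2 and differed little, with 1131 CPM in CIA+VFX, 942.5 in CIA and 924.3 in Cont. Pericytes and smooth muscle cells had 213.8 CPM in CIA+VFX, 103.4 in CIA and 260.2 in Cont. There Igfbp2 lay in the small cluster 58, with 979.5 CPM in CIA+VFX and 425.1 in CIA, and was at most 2.66 CPM in any library in the main cluster 36. Igfbp3 in basal keratinocytes had 89.3 CPM in CIA+VFX, 41.9 in CIA and 53.1 in Cont, 2.13-fold higher in CIA+VFX than in CIA. Their cluster 10 had 301 CPM of Igfbp3 in CIA+VFX, 28.1 in CIA and 396.5 in Cont. In that cluster CIA was thus the low library for Igfbp3 and the high one for Igfbp2. In basal clusters 2, 4, 5 and 20 CIA was instead the highest library for Igfbp3. Cluster 2 had 59.17 CPM in CIA+VFX, 79.12 in CIA and 40.95 in Cont.

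**Figure D4:**
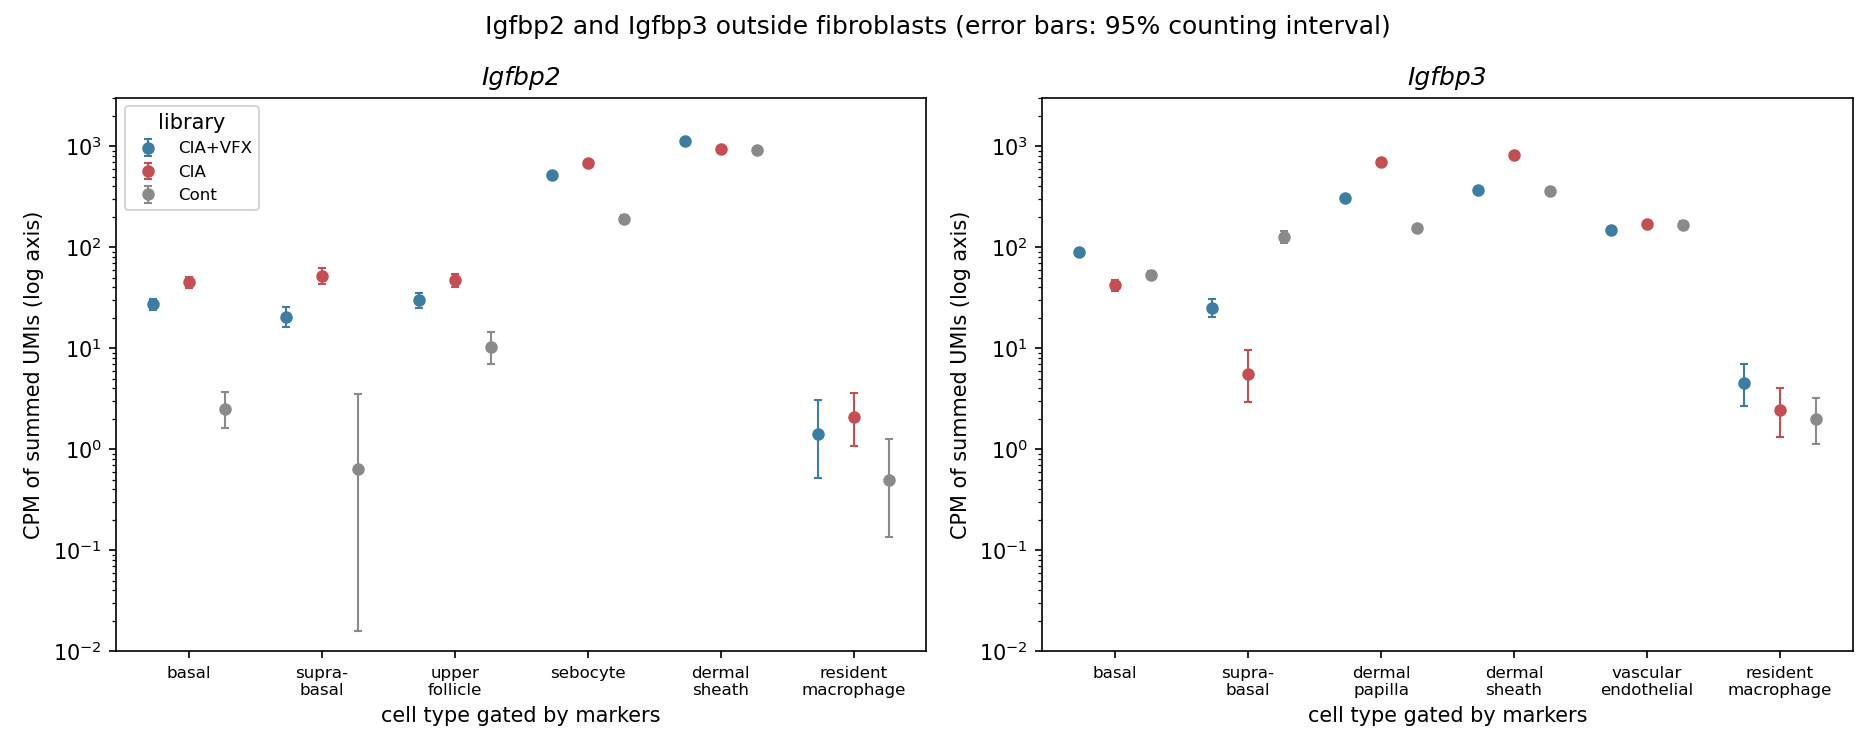
Igfbp2 (left) and Igfbp3 (right) in CPM on a log axis in cell types outside the fibroblasts; points are the CIA+VFX, CIA and Cont libraries and error bars the 95% counting interval. In suprabasal keratinocytes Igfbp2 is highest in CIA (51.7 CPM) and lowest in Cont (0.630 CPM), and Igfbp3 the reverse (5.55 and 126.6 CPM); resident macrophages show the level of a type that should lack both.

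Igfbp6, which prefers IGF2, was largely a fibroblast gene here. Fibroblasts had 1298 CPM in CIA+VFX, 1638 in CIA and 1247 in Cont, within 1.5-fold of each other. Pi16 fibroblasts had 2446 CPM in CIA+VFX, 2747 in CIA and 1781 in Cont, 1.54-fold higher in CIA than in Cont. Myoc fibroblasts had 1909 CPM in CIA+VFX, 2346 in CIA and 1841 in Cont. The papillary-marker subset ran the other way, with 515.3 CPM in CIA+VFX, 693.9 in CIA and 987.5 in Cont. Pericytes and smooth muscle cells had 57.1 CPM in CIA+VFX (108 UMIs), 15.5 in CIA (24 UMIs) and 132.4 in Cont (86 UMIs). In their main cluster 36 the level was 4.44 CPM in CIA+VFX, 7.08 in CIA and 6.24 in Cont, so that gap lay in the other cells of the gate. Over all kept cells Igfbp6 was 1.97-fold higher in CIA than in Cont, beside 1346 fibroblasts in CIA+VFX, 2158 in CIA and 1246 in Cont.

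Igfbp7 marked the vessels. Vascular endothelial cells had 6173 CPM in CIA+VFX, 8730 in CIA and 5622 in Cont, 1.55-fold higher in CIA than in Cont (0.63, 0.61 to 0.66). In the clusters of this gate printed here CIA was again the highest library: cluster 17 had 8222 CPM in CIA+VFX, 10540 in CIA and 6377 in Cont, and cluster 19 had 5129 CPM in CIA+VFX, 6124 in CIA and 4609 in Cont. In cluster 30, with 5207 CPM in CIA+VFX, 7361 in CIA and 5332 in Cont, CIA+VFX was not above Cont. Dermal sheath was level, with 5396 CPM in CIA+VFX, 5355 in CIA and 5207 in Cont. Pericytes and smooth muscle cells had 3777 CPM in CIA+VFX, 4385 in CIA and 3458 in Cont. Dermal papilla had 2436 CPM in CIA+VFX, 2428 in CIA and 2830 in Cont. Fibroblasts had 1741 CPM in CIA+VFX, 1956 in CIA and 1292 in Cont, 1.51-fold higher in CIA than in Cont. These 5 types stood in this order by mean without overlap of their ranges. Over all kept cells the level was 1159 CPM in CIA+VFX, 1507 in CIA and 686.5 in Cont, beside 1138, 1029 and 245 vascular endothelial cells. Bulge and outer root sheath cells had 307.0 CPM in CIA+VFX, 527.0 in CIA and 193.6 in Cont, under 0.5 of the whole-library level, and were not counted as having their own.

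**Figure D5:**
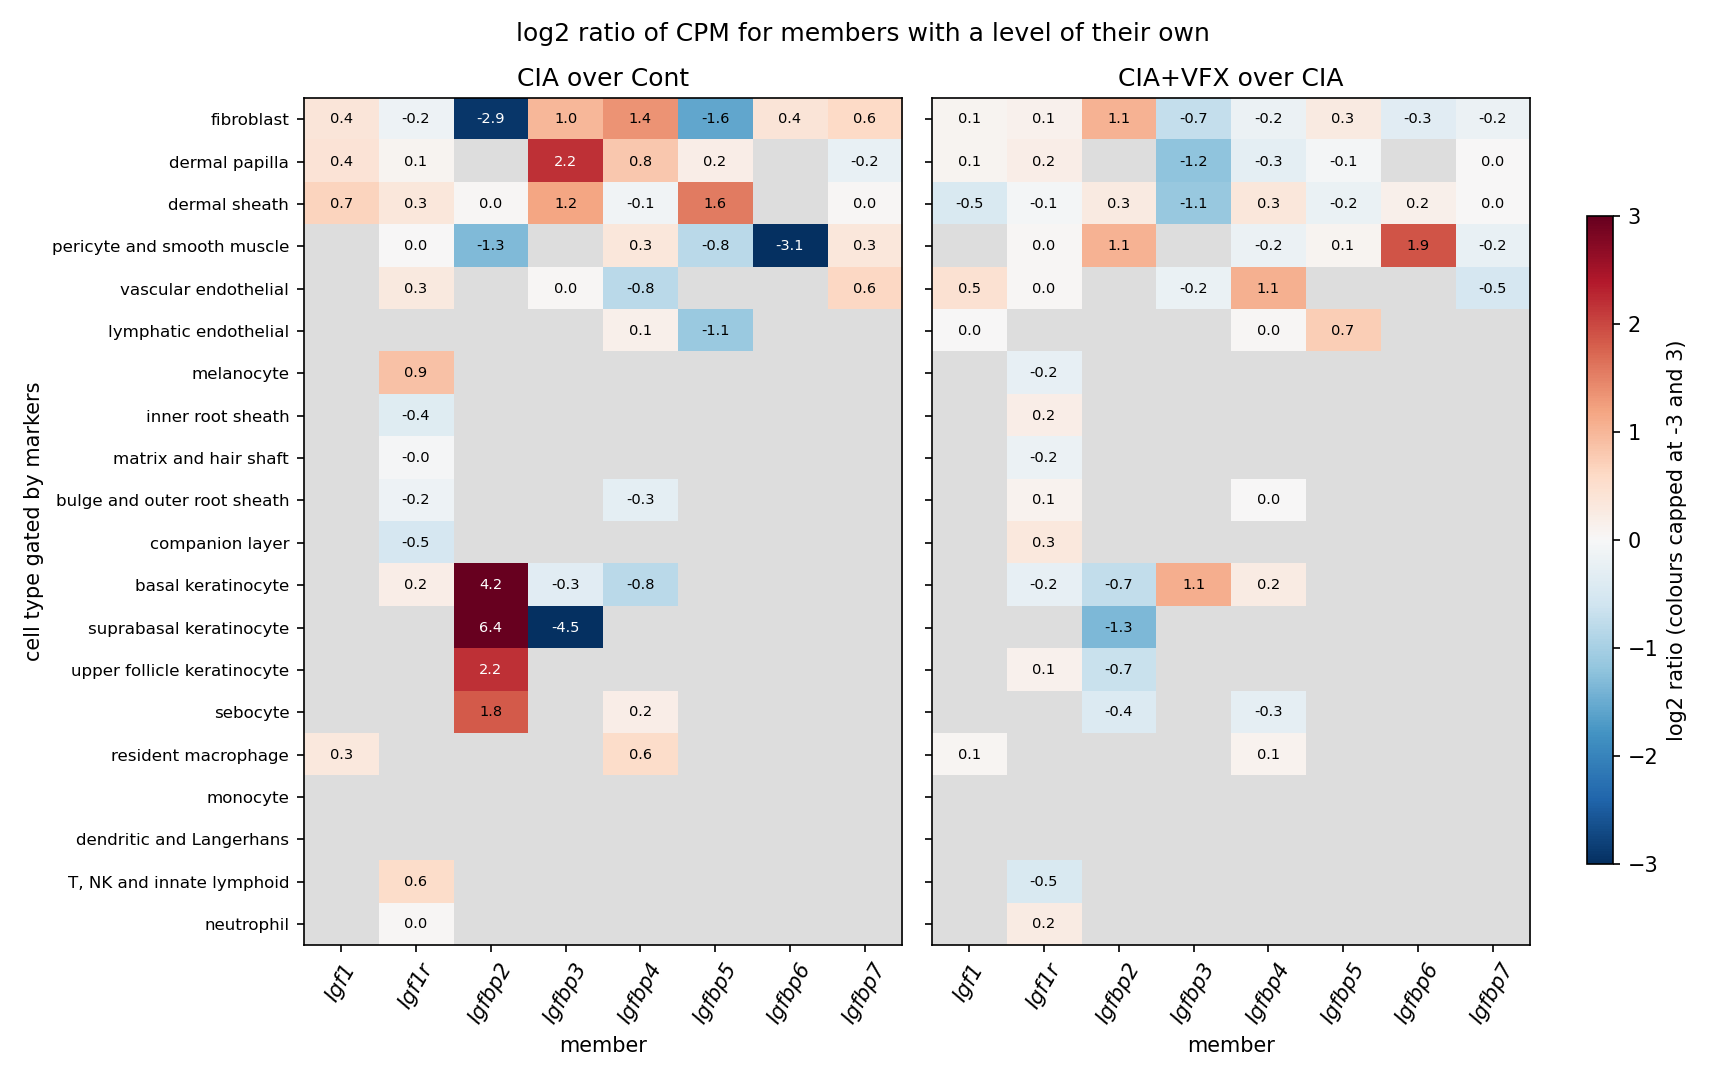
Log2 ratios of CPM (numbers and colours, capped at -3 and 3) for 8 members (columns) in 20 cell types (rows), CIA over Cont on the left and CIA+VFX over CIA on the right; grey fields had fewer than 50 UMIs or no level of their own. Igfbp2 is blue in fibroblasts (-2.91) and red in suprabasal keratinocytes (6.36) in CIA over Cont, and Igfbp3 is red in papilla (2.20) and blue in suprabasal keratinocytes (-4.51).

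The other genes of the pathway, 45 in 5 lists, were counted over the same 20 types. Of 607 measured pairs of gene and type, 49 were higher by 1.5-fold or more in CIA than in Cont and 91 lower, with a median of -0.08, against a median of 0.04, and 12.0% higher and 9.07% lower, over all genes. Of 615 pairs, 31 were higher in CIA+VFX than in CIA and 23 lower, against 5.13% and 4.28% of all genes. Against Cont, 43 were higher in CIA+VFX and 67 lower, beside 10.3% and 6.91% of all genes. The counts by list below, all of CIA against Cont, stand against the same 12.0% and 9.07%. These shares are pooled over types, and single types differed. Of all genes, 23.7% were lower in CIA in sebocytes, 20.1% in neutrophils and 20% in suprabasal keratinocytes. Several of the genes named as lower below are given in these types. Proteases and inhibitors that act on binding proteins had 12 of 44 pairs higher and 7 lower in CIA against Cont. Pappa2, a protease of IGFBP3 and IGFBP5, had 70.0 CPM in dermal sheath of CIA+VFX, 177.3 in CIA and 34.9 in Cont. Stc1, an inhibitor of PAPP-A, had 24.3 CPM in fibroblasts of CIA+VFX, 11.8 in CIA and 52.0 in Cont, the same order of libraries as Igfbp2 and Igfbp5 there. Pappa had 17.9 CPM in upper follicle keratinocytes of CIA+VFX, 14.3 in CIA and 48.1 in Cont.

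Below the receptor, 20 of 365 pairs of adaptors and kinases were higher in CIA than in Cont and 33 lower. Irs2, an adaptor of the insulin and IGF receptors, had 39.2 CPM in neutrophils of CIA+VFX, 54.7 in CIA and 207.9 in Cont. Pik3r1, a regulatory subunit of PI3K, had 85.6 CPM in sebocytes of CIA and 219.1 in Cont. FoxO factors and targets, which the pathway holds down, had 8 of 93 pairs higher and 27 lower in CIA against Cont. Txnip, known as a glucose- and FoxO-responsive gene, had 100.6 CPM in suprabasal keratinocytes of CIA+VFX, 51.2 in CIA and 324.4 in Cont. It also had 188.8 CPM in sebocytes of CIA+VFX, 168.0 in CIA and 593.9 in Cont, and in monocytes 279.2 CPM in CIA and 108.7 in Cont. Among other receptors and partners, 3 of 56 pairs were higher in CIA and 9 lower, among them the insulin receptor gene Insr in suprabasal keratinocytes with 13.2 CPM in CIA and 32.8 in Cont. Regulators of Igf2 RNA had 6 of 49 pairs higher and 15 lower.

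Genes that varied most like each member over the 65 points of type and library are given as a description, since the points share libraries and depth. Igfbp5 had the closest, Cacna2d1 (Pearson r = 0.943), Serping1 (0.929) and the fibrillin gene Fbn1 (0.922). Igfbp7 ran with the basement membrane collagens Col4a2 (0.907) and Col4a1 (0.894), and with Sparc (0.893). Igfbp6 ran with the matrix gene Lum (0.889), Adgrd1 (0.882) and AW551984 (0.872). Igf1 ran with Man1c1 (0.864), Acp2 (0.860) and Cd302 (0.853). Igfbp3 ran with Crispld1 (0.847), Hoxc5 (0.820) and Hoxc9 (0.816), and Igfbp4 with Fam13a (0.822), Clmp (0.801) and Copz2 (0.791). Igfbp2 ran with Gcnt4 (0.811), Clmp (0.769) and A630023A22Rik (0.763). Igf1r had the loosest, Unkl (0.786), Prrc2c (0.743) and Spin1 (0.741). Among members, Igfbp3 and Igfbp7 were the closest pair (0.815), and Igf1 and Igf1r had r = -0.137.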

How the data were processed

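The deposited values were whole UMI counts in 1 matrix per library. Per the file headers, the matrices were written by Cell Ranger 8.0.1. The submitters' processing notes name GRCm39 and FastQC 0.11.7. Libraries held 155210692 UMIs over 18987 barcodes (CIA+VFX), 130557879 over 17675 (CIA) and 143164803 over 14529 (Cont).

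A cell was kept from 500 genes up and to 15% mitochondrial UMIs. Doublets were scored against simulated ones (2 per cell, 30 neighbours) and taken out at 0.4% per 1000 barcodes (7.59%, 7.07% and 5.81% of CIA+VFX, CIA and Cont). Each cell was assigned by the mean scaled level of fixed markers (minimum score 0.15, margins 0.05 between compartments and 0.25 between types), and 15.9%, 14.7% and 17.5% of cells fell in no gate. The gate thresholds, the lymphoid split, the rule on a level of its own and 2 alternatives (fibroblast subsets weighted equally, deeper cells only) were set after values were seen. The members and lists were chosen with earlier results of these data known. Counts were summed per type and library, and ratios had exact conditional binomial intervals, levels exact Poisson and shares Clopper-Pearson ones. Each group had 1 library, so no test was run, and the ratio step was tested on simulated data. Of the other pathway genes, up to 2 per list with the highest and up to 2 with the lowest ratio could be named in each comparison, among those with at least 50 UMIs and 1.5-fold apart, and for each member with at least 500 UMIs the 3 genes with the highest Pearson correlation of log2(CPM + 1). Promoter stretches came from a RefSeq table of GRCm38.p6, not the build of the counts. Clusters were built without the members (Leiden, resolution 1.5, 40 components, 20 neighbours). Alternatives were clusters, a stricter gate and filter, no doublet removal, TMM and median-of-ratios scaling, means over cells, thinning to 2000 UMIs, 5% free RNA subtracted, and minimum UMIs of 10 or 200. The software was Python 3.11.15, numpy 2.4.6, scipy 1.17.1, pandas 2.3.3, leidenalg 0.10.2, R 4.3.3 and, for TMM, edgeR 4.0.16.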

Additional observations from a re-analysis of the deposited data

Results flagged for a closer look

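Several members were at least 2-fold higher in 1 cell type and at least 2-fold lower in another under the same contrast. With 1 library per group, none of these differences between types was tested.

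In CIA against Cont, the log2 ratio of Igfbp2 was 6.36 in suprabasal keratinocytes and -2.91 in fibroblasts. The first value rests on 1 UMI in Cont. Igfbp3 stood at 2.20 in dermal papilla and -4.51 in suprabasal keratinocytes. Igfbp5 stood at 1.57 in dermal sheath and -1.55 in fibroblasts.

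Between CIA+VFX and CIA, Igfbp2 stood at 1.05 in fibroblasts and -1.34 in suprabasal keratinocytes (0.01 with cells thinned). Igfbp3 stood at 1.09 in basal keratinocytes and -1.20 in dermal papilla, the latter not kept with clusters in place of gates. Between CIA+VFX and Cont, Igfbp2 stood at 1.43 in sebocytes and -1.85 in fibroblasts, Igfbp3 at 1.01 in dermal papilla and -2.33 in suprabasal keratinocytes, and Igfbp5 at 1.36 in dermal sheath and -1.28 in fibroblasts. The contrasts share libraries, so these sets are not independent of each other.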

How the results depend on the processing

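No paired analysis was possible because each group had 1 library and the labels carry no replicate numbers. With clusters in place of gates, the log2 ratio of Igf1 in dermal sheath, CIA against Cont, was -0.25, that of Igfbp3 there was -0.42, that of Igfbp3 in dermal papilla, CIA+VFX against CIA, was 0.03, and fibroblasts stood at -0.17 relative to resident macrophages in Igf1. With means over cells that last value was -0.12, and with cells thinned, Igfbp2 in suprabasal keratinocytes, CIA+VFX against CIA, stood at 0.01. The causes were not tested. The 14 pairs higher in CIA than in Cont with a level of their own were 9 with clusters and 8 with thinned cells. The 6 pairs lower in CIA+VFX than in CIA were 1 with clusters and 3 with means over cells. Pairs of other pathway genes at least 1.5-fold apart, 140 in CIA against Cont, were 89 with clusters, 89 with thinned cells and 217 at a minimum of 10 UMIs. The 54 such pairs between CIA+VFX and CIA became 88 with means over cells, 135 at 10 UMIs and 27 at 200 UMIs. The 110 between CIA+VFX and Cont became 72 with clusters, 180 at 10 UMIs and 67 at 200 UMIs. Of 83 single ratios between libraries, none changed sign under TMM or median-of-ratios scaling, the stricter filter or gate, or without doublet removal. Many left their counting interval under other settings. With cells thinned, 25 of 82 stayed within it, 56 left it and 1 changed sign. With means over cells, 37 of 83 stayed and 46 left it. With clusters, 22 of 44 stayed, 19 left it and 3 changed sign. Scaling shifted ratios against Cont by up to 0.26 in sebocytes, 0.20 in suprabasal keratinocytes, -0.20 in basal keratinocytes and -0.23 in resident macrophages. Igfbp3 in dermal papilla, CIA against Cont, was 1.07 with clusters.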
